A study of Arabidopsis thaliana with 12 samples.

Results

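Plants of *Arabidopsis thaliana* that had spent 5 days at 25 °C were compared with plants kept at 16 °C, splicing event by splicing event. The members are the genes with at least 1 event whose percentage spliced in (PSI, written here as a fraction from 0 to 1) differed by 0.10 or more between these groups, which were 297 of the 511 genes in the table (360 of 638 events). Both groups were of the Columbia accession, grown for 5 weeks at 16 °C under 8 h of light and 16 h of darkness. The 25 °C day 5 group (3 samples) was then moved to the warm chamber and harvested on day 5, while the 16 °C group (3 samples) stayed in the cool and was harvested on day 1, so the warm plants were also older, and age and temperature cannot be told apart. Groups at 25 °C days 1 and 3 (3 samples each) are given beside them. Each sample pooled about 10 plants, and the tissue was enriched for the shoot apex by taking leaves off, although the labels name young leaves too. The labelled tissue could not be checked against markers, because the table has splicing values and no expression levels.

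Splicing removes introns from precursor RNA and joins the exons, and choosing other splice sites yields several messenger RNAs from 1 gene. In plants, keeping an intron is the most common form of this choice, and a kept intron often brings in a stop codon that marks the RNA for decay. Ambient temperature is known to shift the choice in genes of flowering, the circadian clock and the splicing machinery itself. PSI is the share, among the transcripts counted for 1 event, that have the isoform chosen as reference. For intron retention (RI) this is the share that keeps the intron, and for a skipped exon (SE) the share that includes the exon. For alternative 3′ sites (A3), alternative 5′ sites (A5) and mutually exclusive exons (MXE) the sources used here do not say which isoform was the reference, so their direction has no meaning beyond its sign.

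The table holds 1 value per group for each event, made by the authors from the 3 samples, and no value per sample. The differences (ΔPSI, 25 °C day 5 minus 16 °C) therefore have no replicate check here, no test was run, and the read depth behind each value is unknown beyond the minimum that the authors set. Every listed event had been called by the authors on at least 1 of the 3 days, so the shares below are shares of a selected list.

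For 225 of the 637 events whose gene is in the RefSeq annotation (TAIR10.1), that annotation holds exactly 1 alternative of the listed type in the gene. Another 191 events had none and 221 had several. These placed alternatives are shown for some genes the results turn on. Whether an annotated alternative is the one that was measured was not tested, since the table does not place events within genes. The first set is retained introns inside the coding part of 7 genes with ΔPSI of 0.20 or more in either direction, printed 5′ to 3′ with the terminal 2 bases at each end in capitals.
PLDGAMMA3 (AT4G11840, chr4:7125246-7125335, minus strand): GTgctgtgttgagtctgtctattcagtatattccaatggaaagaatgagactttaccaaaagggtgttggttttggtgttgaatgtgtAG
AT5G65170 (AT5G65170, chr5:26041726-26041890, plus strand): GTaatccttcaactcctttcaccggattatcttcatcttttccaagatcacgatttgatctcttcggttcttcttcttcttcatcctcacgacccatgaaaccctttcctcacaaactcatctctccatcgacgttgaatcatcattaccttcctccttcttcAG
La2 (AT1G79880, chr1:30048050-30048124, minus strand): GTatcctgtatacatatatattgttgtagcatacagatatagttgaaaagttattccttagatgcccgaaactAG
SOL1 (AT1G71696, chr1:26967557-26967698, plus strand): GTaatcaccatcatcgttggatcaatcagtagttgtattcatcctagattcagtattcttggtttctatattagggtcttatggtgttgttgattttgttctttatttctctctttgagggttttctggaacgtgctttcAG
HUA2 (AT5G23150, chr5:7791641-7791816, plus strand): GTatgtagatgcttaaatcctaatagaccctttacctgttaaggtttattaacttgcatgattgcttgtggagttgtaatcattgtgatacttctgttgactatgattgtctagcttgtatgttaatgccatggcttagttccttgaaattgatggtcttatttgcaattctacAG
AT4G02540 (AT4G02540, chr4:1118898-1119006, plus strand): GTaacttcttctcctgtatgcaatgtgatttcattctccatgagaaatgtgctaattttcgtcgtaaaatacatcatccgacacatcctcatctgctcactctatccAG
AT1G48430 (AT1G48430, chr1:17903000-17903107, minus strand): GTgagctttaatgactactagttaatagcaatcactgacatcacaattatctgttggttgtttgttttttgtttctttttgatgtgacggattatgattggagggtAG
Read in the frame of the exons before them, the introns of *La2*, *SOL1*, *HUA2* and AT1G48430 hold a stop codon, and those of *PLDGAMMA3*, AT5G65170 and AT4G02540 do not. The *PLDGAMMA3* intron is 90 bases and the AT5G65170 intron 165 bases long, both multiples of 3.

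The second set is pairs of 3′ splice sites in coding parts, shown because many of the placed pairs lay only a few bases apart. The capitals are the stretch between the 2 sites, which is kept when the upstream site is used, with intron sequence before it and exon sequence after it.
AGO1 (AT1G48410, chr1:17890644-17890649, minus strand): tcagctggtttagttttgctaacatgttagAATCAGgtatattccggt
TPPA (AT5G51460, chr5:20902657-20902659, plus strand): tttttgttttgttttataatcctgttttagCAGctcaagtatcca
RSH1 (AT4G02260, chr4:988616-988618, plus strand): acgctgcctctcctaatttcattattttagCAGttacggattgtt
SHH2 (AT3G18380, chr3:6311269-6311271, minus strand): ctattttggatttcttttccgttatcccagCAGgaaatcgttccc
BUBR1 (AT2G33560, chr2:14214806-14214808, minus strand): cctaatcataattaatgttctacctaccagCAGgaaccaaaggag
DAW1 (AT4G35560, chr4:16884321-16884323, plus strand): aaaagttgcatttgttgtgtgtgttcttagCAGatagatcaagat
CTF2A (AT2G35660, chr2:14989002-14989009, plus strand): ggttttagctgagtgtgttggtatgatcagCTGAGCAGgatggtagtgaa
MAF3 (AT5G65060, chr5:25990084-25990116, plus strand): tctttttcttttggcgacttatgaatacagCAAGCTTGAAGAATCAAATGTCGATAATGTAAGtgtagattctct
AT5G67540 (AT5G67540, chr5:26945700-26945782, minus strand): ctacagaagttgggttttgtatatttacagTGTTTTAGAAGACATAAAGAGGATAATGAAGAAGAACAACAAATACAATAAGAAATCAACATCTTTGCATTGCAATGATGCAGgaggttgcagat
The third set is skipped exons, in capitals, with 20 intron bases on each side.
SCL33 (AT1G55310, chr1:20631687-20631722, plus strand): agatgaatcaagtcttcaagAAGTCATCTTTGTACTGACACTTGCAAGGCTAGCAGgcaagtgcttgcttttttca
SR45a (AT1G07350, chr1:2258750-2258845, minus strand): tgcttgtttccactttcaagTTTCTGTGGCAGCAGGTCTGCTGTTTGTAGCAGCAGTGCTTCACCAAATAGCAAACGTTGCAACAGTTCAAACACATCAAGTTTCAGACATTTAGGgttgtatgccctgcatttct
AT5G52070 (AT5G52070, chr5:21163579-21163648, plus strand): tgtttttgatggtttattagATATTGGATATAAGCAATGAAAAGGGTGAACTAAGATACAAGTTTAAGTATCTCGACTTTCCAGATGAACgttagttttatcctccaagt
AT5G18230 (AT5G18230, chr5:6026595-6026600, minus strand): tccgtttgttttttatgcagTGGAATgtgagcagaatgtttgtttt

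ΔPSI reached 0.10 in either direction in 56.4% of the listed events. PSI was higher at 25 °C day 5 in 177 events (27.7% of those listed) and lower in 183 (28.7%), so 49.2% of these 360 events were higher. The exact Clopper-Pearson 95% interval over events was 43.9 to 54.5%. It covers counting of events only and takes them as independent, although 43 genes had 2 or more of these events. The share also pools A3, A5 and MXE events, whose sign depends on the unstated reference isoform. The median absolute ΔPSI was 0.16 among the 360 events and 0.11 over all 638 events. Most differences were small, with 158 events from 0.10 to 0.14, 96 from 0.15 to 0.19, 81 from 0.20 to 0.29, 21 from 0.30 to 0.39 and 4 of 0.40 or more. The balance leaned with size: 71 higher against 87 lower in the lowest class, and 62 against 44 among the 106 events of 0.20 or more. At the limit, 29 events had a difference of exactly 0.10 and 44 of exactly 0.09. An exon of *PRR7* lay just inside, with 0.86 at 25 °C day 5 and 0.96 at 16 °C, and an alternative 3′ site of *ATPTB2* just outside, with 0.88 at 25 °C day 5 and 0.79 at 16 °C.

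**Figure D1:**
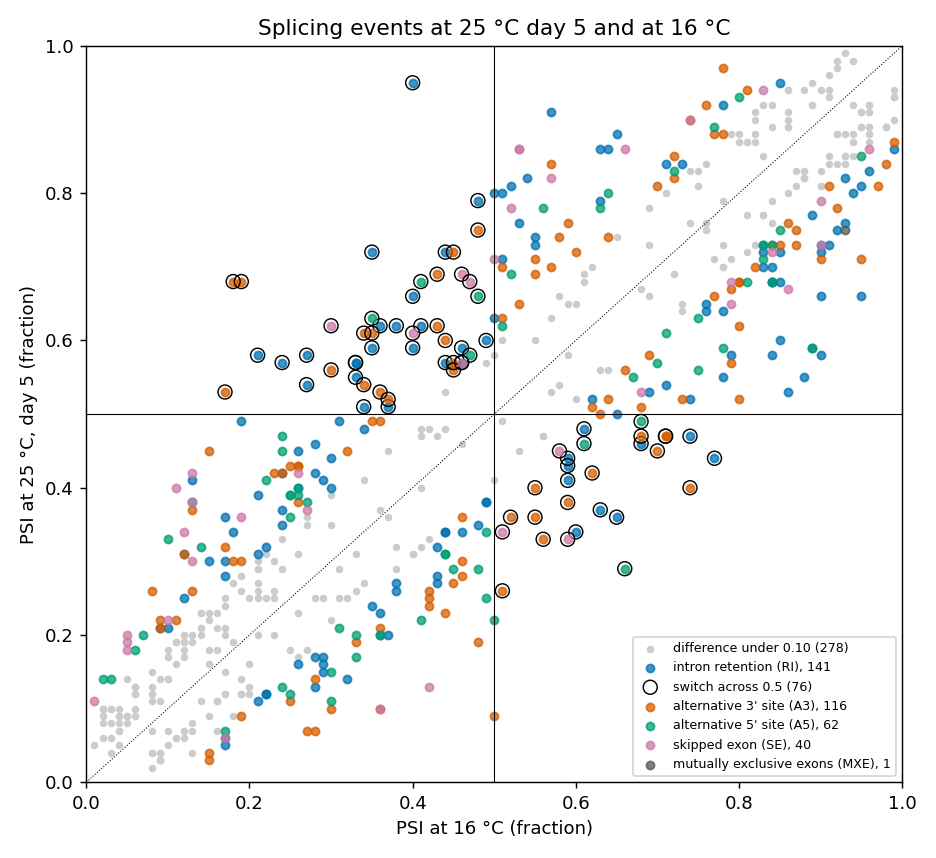
PSI at 25 °C day 5 (vertical axis, fraction) against PSI at 16 °C (horizontal axis, fraction) for 638 splicing events, 1 point per event and 1 value per group, coloured by event type where the difference was 0.10 or more and grey in the other 278. Circles mark the 76 events that differed by 0.10 or more and lay on opposite sides of 0.5 in the 2 groups, 48 in the upper left field (higher at 25 °C day 5) and 28 in the lower right.

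Intron retention had 141 of 246 events (57.3%), alternative 3′ sites 116 of 213 (54.5%), alternative 5′ sites 62 of 112 (55.4%) and skipped exons 40 of 65 (61.5%). Retention was higher in 67 and lower in 74, alternative 3′ sites were higher in 56 and lower in 60, and alternative 5′ sites higher in 28 and lower in 34. Skipped exons were included more at 25 °C day 5 in 26 events and less in 14. At 0.20 or more, exons were included more in 14 events and less in 3, and introns were retained more in 28 and less in 17. Alternative 3′ sites were higher in 13 and lower in 20, but their sign depends on the unstated reference isoform and cannot be set against the other types. These counts were not tested, and some events share a gene. At 0.20 or more, the 3 exon events that were lower came from AT2G42920 and AT1G06710 only, and those that were higher include both of AT1G62920 given below. With 1 event per gene, 21 exons were higher and 11 lower.

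**Figure D2:**
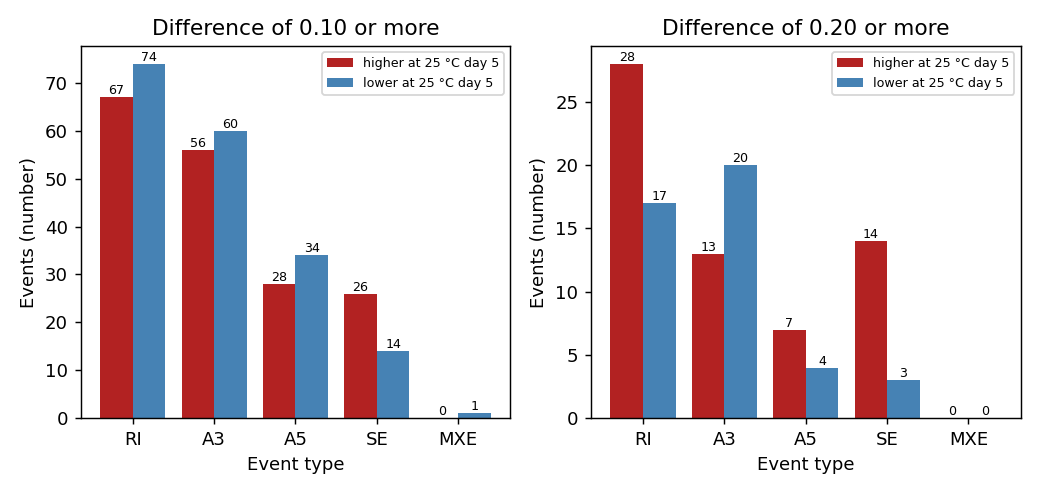
Number of events with higher (left bar of each pair) and lower (right bar) PSI at 25 °C day 5 than at 16 °C, by event type, for differences of 0.10 or more and of 0.20 or more. Skipped exons stood at 26 higher and 14 lower in the left panel and at 14 and 3 in the right one.

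The skipped exons with the highest ΔPSI included 2 events of AT1G62920, a gene with a proteasome maturation factor domain, both at 0.86 at 25 °C day 5 and 0.53 at 16 °C. An exon of AT5G52070, which encodes an Agenet domain protein of the family that reads histone marks, had a PSI of 0.62 at 25 °C day 5 and 0.30 at 16 °C. The annotated exon shown above is 70 bases long, not a multiple of 3, so it shifts the reading frame. The exon shown for AT5G18230, a gene of the NOT family, is 6 bases long and was included at 0.71 at 25 °C day 5 and 0.50 at 16 °C. Among exons that were included less, the lowest ΔPSI was that of AT2G42920, a pentatricopeptide repeat gene, with 0.13 at 25 °C day 5 and 0.42 at 16 °C. Its other exon event had 0.10 at 25 °C day 5 and 0.36 at 16 °C, and its alternative 5′ site 0.22 at 25 °C day 5 and 0.50 at 16 °C, so all 3 of its events were lower.

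Where an alternative could be placed in the annotation, its size was compared between alternatives with an event past 0.10 and those with an event under it, counting each once within a class although several events can fall on it. The 78 distinct 3′ site pairs lay a median of 9 bases apart, and in 26 of them the sites were 3 bases apart, the length of 1 codon. This held for 16 of the 49 pairs with an event past 0.10 and for 10 of the 31 with one under it, 2 pairs being in both classes. The 3 bases read CAG in 20 of the 26 pairs, TAG in 5 and AAG in 1. Of the 20 pairs with CAG, 5 were higher and 8 lower by 0.10 or more at 25 °C day 5. Of the genes shown with such sites, *RSH1*, annotated as a RELA/SPOT homolog, switched (0.36 at 25 °C day 5, 0.52 at 16 °C). So did *SHH2* (0.52 at 25 °C day 5, 0.37 at 16 °C), and *DAW1* was at 0.23 at 25 °C day 5 and 0.44 at 16 °C. With 8 bases between its sites, *CTF2A* stood at 0.45 at 25 °C day 5 and 0.15 at 16 °C, the stretch not being a multiple of 3. Among 66 distinct placed introns, 48 lay in a coding part, and an in-frame stop was found in 18 of 26 such introns with an event past 0.10 and in 16 of 23 with one under it, 1 placed intron being in both classes. These shares were close to each other, and the comparison was not tested.

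The major isoform of an event, the one with a share over 0.5 in that event, was not the same in the 2 groups in 76 events of 67 genes, or 11.9% of the events listed. A gene can have several events, so the major isoform of an event need not be the main form among all transcripts of the gene. In 48 of the 76 events the reference isoform was the major one at 25 °C day 5, and in 28 it was the major one at 16 °C. Another 6 events crossed 0.5 with a difference under 0.10. Retained introns made up 33 of the switches (23 higher, 10 lower), alternative 3′ sites 28 (16 higher, 12 lower), skipped exons 8 (5 higher, 3 lower) and alternative 5′ sites 7 (4 higher, 3 lower). Many were near balance: 42 of the 76 had a day 5 PSI from 0.40 to 0.60, and 34 lay outside it. The median absolute ΔPSI of the switches was 0.235, and 49 had 0.20 or more, of which 32 were higher and 17 lower at 25 °C day 5. Of the 360 events, 189 had a 16 °C PSI under 0.5 and 166 over it.

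**Figure D3:**
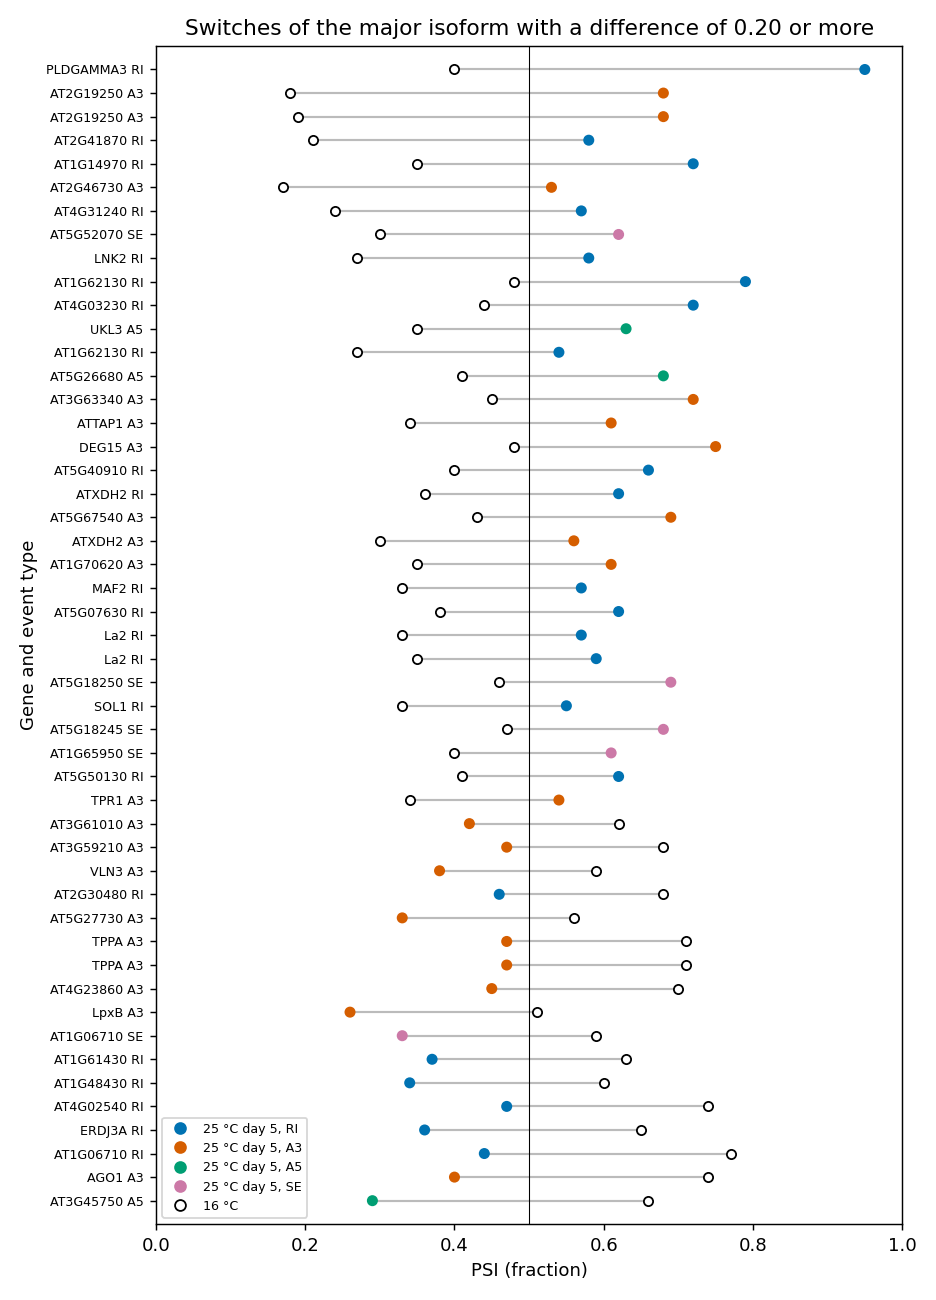
PSI (fraction) at 25 °C day 5 (filled, coloured by event type) and at 16 °C (open) for the 49 events with an absolute difference of 0.20 or more that lay on opposite sides of 0.5, 1 line per event. The 32 upper lines cross to the right at 25 °C day 5 and the 17 lower ones to the left, and PLDGAMMA3 reaches furthest, with 0.95 at 25 °C day 5 and 0.40 at 16 °C.

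The widest switch was intron retention in *PLDGAMMA3* (AT4G11840, TAIR10 chromosome 4, 7122152 to 7125882, minus strand), a phospholipase D, an enzyme that releases phosphatidic acid from membrane lipids. Its PSI was 0.95 at 25 °C day 5 and 0.40 at 16 °C, a ΔPSI of 0.55 and the highest in the table, with 0.79 on day 1 and 0.88 on day 3 at 25 °C. Another retention event of the same gene was lower, with 0.58 at 25 °C day 5 and 0.84 at 16 °C. The annotation has 1 retained intron for both, the one shown above, so it is not known which of these opposite events, if either, that sequence belongs to. The paralog *PLDGAMMA2*, the next locus on the chromosome by its identifier, had a retained intron at 0.54 at 25 °C day 5 and 0.71 at 16 °C. These genes are similar in sequence, so reads may be shared between them.

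Other retained introns had a PSI over 0.5 at 25 °C day 5 and under 0.5 at 16 °C. The clock co-activator gene *LNK2* (AT3G54500, chromosome 3, 20175792 to 20178737, minus strand) had a retained intron at 0.58 at 25 °C day 5 and 0.27 at 16 °C. *MAF2* (AT5G65050, listed as AGL31), a MADS-box repressor of flowering, had 0.57 at 25 °C day 5 and 0.33 at 16 °C. In the remorin gene AT2G41870, of a family of plasma membrane scaffold proteins, PSI was 0.58 at 25 °C day 5 and 0.21 at 16 °C. Retention in AT1G14970, which encodes an O-fucosyltransferase family protein, was 0.72 at 25 °C day 5 and 0.35 at 16 °C, and 0.52 on day 3 at 25 °C, closer to the limit. AT4G31240, a gene with a zinc finger like that of protein kinase C, had 0.57 at 25 °C day 5 and 0.24 at 16 °C. The AAA-type ATPase gene AT1G62130 had 2 such introns, at 0.79 at 25 °C day 5 against 0.48 at 16 °C, and at 0.54 at 25 °C day 5 against 0.27 at 16 °C.

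Further retention switches of 0.20 or more in the same direction were found in genes of several kinds. The 2 events of *La2*, an RNA-binding La protein, stood at 0.59 and 0.57 at 25 °C day 5 and at 0.35 and 0.33 at 16 °C. The annotation has 1 retained intron for both, so they may be the same intron seen in different isoforms. *SOL1*, a carboxypeptidase gene of the CLE peptide pathway, had 0.55 at 25 °C day 5 and 0.33 at 16 °C. *ATXDH2*, a xanthine dehydrogenase of purine breakdown, switched in a retained intron (0.62 at 25 °C day 5, 0.36 at 16 °C) and in an alternative 3′ site (0.56 at 25 °C day 5, 0.30 at 16 °C). The immune receptor gene AT5G40910, of the TIR-NBS-LRR class, had 0.66 at 25 °C day 5 and 0.40 at 16 °C. The lipid transporter gene AT5G07630 stood at 0.62 at 25 °C day 5 and 0.38 at 16 °C, the oxidoreductase gene AT5G50130 at 0.62 at 25 °C day 5 and 0.41 at 16 °C (0.42 on day 1 at 25 °C), and the S-locus lectin kinase gene AT4G03230 at 0.72 at 25 °C day 5 and 0.44 at 16 °C.

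In 6 retention switches of 0.20 or more the spliced form was the major one at 25 °C day 5. The furthest was AT1G06710, a tetratricopeptide repeat gene, with 0.44 at 25 °C day 5 and 0.77 at 16 °C, and a skipped exon of this gene switched the same way, with 0.33 at 25 °C day 5 and 0.59 at 16 °C. *ATERDJ3A* (AT3G08970), a J-domain co-chaperone of the endoplasmic reticulum, had an intron retained at 0.36 at 25 °C day 5 and 0.65 at 16 °C, with 0.44 on day 1 and 0.51 on day 3 at 25 °C. Of the 4 groups, retention was lowest on day 5. AT4G02540, a C1 domain gene, stood at 0.47 at 25 °C day 5 and 0.74 at 16 °C. The dihydroxyacetone kinase gene AT1G48430 had 0.34 at 25 °C day 5 and 0.60 at 16 °C. Another retention event of AT1G48430 was no switch, with 0.35 at 25 °C day 5 and 0.48 at 16 °C. The annotation has 1 retained intron for both, so it is not known which of them, if either, the sequence shown above belongs to. The S-locus lectin kinase gene AT1G61430 had 0.37 at 25 °C day 5 and 0.63 at 16 °C, and AT2G30480, of unknown function, 0.46 at 25 °C day 5 and 0.68 at 16 °C.

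Among alternative 3′ sites, *AGO1* (AT1G48410, chromosome 1, 17886285 to 17891892, minus strand), whose protein cuts messenger RNAs under the guidance of microRNAs, had the lowest ΔPSI among the switches of this type. Its PSI was 0.40 at 25 °C day 5 and 0.74 at 16 °C, with 0.41 on day 1 and 0.39 on day 3 at 25 °C. The annotated pair of sites, shown above, is 6 bases apart, so the isoforms keep the same reading frame. The 2 listed events of *TPPA* (listed as ATTPPA), a trehalose 6-phosphate phosphatase gene, had identical values of 0.47 at 25 °C day 5 and 0.71 at 16 °C, and the annotation places 1 pair of sites 3 bases apart in it. Further sites that were minor at 25 °C day 5 were those of the actin-bundling villin *VLN3* (0.38 at 25 °C day 5, 0.59 at 16 °C), of *LpxB* of lipid A synthesis (0.26 at 25 °C day 5, 0.51 at 16 °C) and of the PHD finger gene AT4G23860 (0.45 at 25 °C day 5, 0.70 at 16 °C). *VLN3* was nearer its 16 °C value on day 5 than earlier, having stood at 0.15 on day 1 and 0.10 on day 3 at 25 °C. The other 3 were AT5G27730 (0.33 at 25 °C day 5, 0.56 at 16 °C), the F-box gene AT3G59210 (0.47 at 25 °C day 5, 0.68 at 16 °C) and AT3G61010 (0.42 at 25 °C day 5, 0.62 at 16 °C).

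In the other direction, *TPR1*, a co-repressor related to TOPLESS, had an alternative 3′ site at 0.54 at 25 °C day 5 and 0.34 at 16 °C. *DEG15*, the processing protease of peroxisomes, stood at 0.75 at 25 °C day 5 and 0.48 at 16 °C, the protein phosphatase 2C gene AT3G63340 at 0.72 at 25 °C day 5 and 0.45 at 16 °C, and AT5G67540 of the arabinanase family at 0.69 at 25 °C day 5 and 0.43 at 16 °C. The neighbours AT1G70610 (*ATTAP1*, an ABC transporter) and AT1G70620 (cyclin-related) share 1 assembled locus and had nearly equal values, 0.61 at 25 °C day 5 in both, against 0.34 and 0.35 at 16 °C, so these may be 1 event under 2 names. The same holds for a skipped exon at AT5G18245 (0.68 at 25 °C day 5, 0.47 at 16 °C) and AT5G18250 (0.69 at 25 °C day 5, 0.46 at 16 °C). In all, 7 assembled loci were listed under 2 gene names. Exon inclusion in the kinase gene AT1G65950 was 0.61 at 25 °C day 5 and 0.40 at 16 °C.

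Only 3 switches of 0.20 or more used an alternative 5′ site. *UKL3*, a uridine kinase-like gene, had 0.63 at 25 °C day 5 and 0.35 at 16 °C, and AT5G26680, of the 5′-3′ exonuclease family, 0.68 at 25 °C day 5 and 0.41 at 16 °C. AT3G45750 (chromosome 3, 16793855 to 16796913, minus strand), a nucleotidyltransferase gene, was lower, with 0.29 at 25 °C day 5 and 0.66 at 16 °C. Its ΔPSI was second from the bottom of the table, below which lay the alternative 3′ site of AT1G01910, an ATPase of the P-loop class, with 0.09 at 25 °C day 5 and 0.50 at 16 °C. At exactly 0.50 the 16 °C group had no major isoform, so AT1G01910 was not counted as a switch.

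The extremes of the difference also held events that stayed on 1 side of 0.5. The intron of AT5G65170, a VQ motif gene, was retained at 0.91 at 25 °C day 5 and 0.57 at 16 °C. At the lower end, AT2G16990, a major facilitator transporter gene, had 0.58 at 25 °C day 5 and 0.90 at 16 °C, with 0.81 on day 1 and 0.71 on day 3 at 25 °C, so that the gap was widest on day 5. AT4G19410, of the pectin acetylesterase family, followed a like course, with 0.89 at 16 °C and 0.82 on day 1, 0.73 on day 3 and 0.59 on day 5 at 25 °C. AT3G46385, a gene without annotation text, had an alternative 3′ site at 0.19 at 25 °C day 5 and 0.48 at 16 °C.

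Events in pseudogenes and non-coding genes were few, 18 from 13 pseudogenes and 20 from 14 non-coding RNA genes, and shares by gene were not counted for them. By their type in the RefSeq annotation, 16 of 18 events in pseudogenes passed 0.10 (88.9%), as did 14 of 20 in non-coding RNA genes (70%) and 329 of 599 in coding genes (54.9%). The transcribed pseudogene AT2G19250 had 5 such events. Alternative 3′ sites stood at 0.68 in 2 of them at 25 °C day 5, against 0.18 and 0.19 at 16 °C, and another event at 0.31 at 25 °C day 5 and 0.12 at 16 °C. Its 2 retention events were lower, at 0.55 and 0.53 at 25 °C day 5 and at 0.88 and 0.86 at 16 °C. The transcribed pseudogene AT2G46730 had an alternative 3′ site at 0.53 at 25 °C day 5 and 0.17 at 16 °C.

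Opposite directions within 1 gene were found in 14 of the 43 genes with 2 or more events past 0.10, and 29 had 1 direction. The widest spans between events of a gene were those of AT2G19250 (0.83), *PLDGAMMA3* (0.81), *FLM* (0.45), AT3G61010 (0.43) and AT4G03230 (0.43). AT3G61010, a ferritin-like family gene, retained an intron at 0.86 at 25 °C day 5 and 0.63 at 16 °C, whereas its alternative 3′ site was lower. AT4G03230 had 5 retention events, the highest of which is given with the switches above, while 2 of them were lower, at 0.50 and 0.48 at 25 °C day 5 and at 0.65 and 0.61 at 16 °C. Events of 1 gene share isoforms, so these values are not independent.

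Flowering genes were the list with the largest share past the limit, 13 of 15 events (86.7%, against 56.4% of all events) with a median absolute ΔPSI of 0.15, against 0.11 over all. This lead depended on the limit. At 0.20 or more the list had 3 of its 15 events, against 106 of all 638 and 7 of 17 in the PPR and TPR repeat list. Of the 13 events past 0.10, 7 were higher and 6 lower, and 3 were switches. *FLM* (AT1G77080, listed as MAF1, chromosome 1, 28955679 to 28959845, plus strand) is a MADS-box repressor of flowering whose splice forms have opposing roles in the response to warmth. It had 3 of the 13 events, none of them a switch. Its retained intron stood at 0.30 at 25 °C day 5 and 0.15 at 16 °C. Its mutually exclusive exons, the only such event past 0.10, were at 0.75 at 25 °C day 5 and 0.93 at 16 °C, and its alternative 5′ site at 0.59 at 25 °C day 5 and 0.89 at 16 °C. The other event of this type, in AT2G33980, was at 0.48 at 25 °C day 5 and 0.41 at 16 °C.

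Relatives of *FLM* were listed as well. *MAF2*, whose intron is described with the switches, had more of the retained form at 25 °C day 5. *MAF3* had an alternative 3′ site at 0.81 at 25 °C day 5 and 0.97 at 16 °C, for which the annotation has a pair of sites 33 bases apart, shown above. The *FLM* family members are similar in sequence, which limits how far reads can be told apart. The only retained intron that the annotation holds for *MAF2* spans 2081 bases and need not be the one measured.

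Other regulators of flowering were among the events as well. *HUA2* (AT5G23150, chromosome 5, 7786173 to 7792080, plus strand), which promotes the expression of *FLM* and related repressors, had an intron retained at 0.66 at 25 °C day 5 and 0.95 at 16 °C, with 0.77 on day 1 and 0.71 on day 3 at 25 °C. *FCA*, an RNA-binding protein of the autonomous flowering pathway, had a retained intron at 0.13 at 25 °C day 5 and 0.28 at 16 °C, and an alternative 5′ site under the limit, at 0.47 at 25 °C day 5 and 0.43 at 16 °C. *VIL2* (listed as VEL1), a partner of the Polycomb complex, switched in 2 alternative 3′ site events, at 0.57 and 0.56 at 25 °C day 5 and at 0.45 in both at 16 °C. These 2 stood at 0.50 and 0.49 on day 1, so that the crossing was seen from day 3.

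The other 4 flowering events past the limit had absolute differences of 0.11 to 0.18. *SHL* (listed as SHL1), which binds methylated histone H3, had an alternative 3′ site at 0.24 at 25 °C day 5 and 0.42 at 16 °C. *EDM2*, with roles in immunity and flowering, retained an intron at 0.35 at 25 °C day 5 and 0.24 at 16 °C. Exons of *SPL2*, a flowering promoter targeted by miR156, and of *MOS1* were included more: 0.94 at 25 °C day 5 and 0.83 at 16 °C in *SPL2*, and 0.22 at 25 °C day 5 and 0.10 at 16 °C in *MOS1*. Under the limit, besides the second event of *FCA*, was a retained intron of *TZP*, at 0.99 at 25 °C day 5 and 0.93 at 16 °C.

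**Figure D4:**
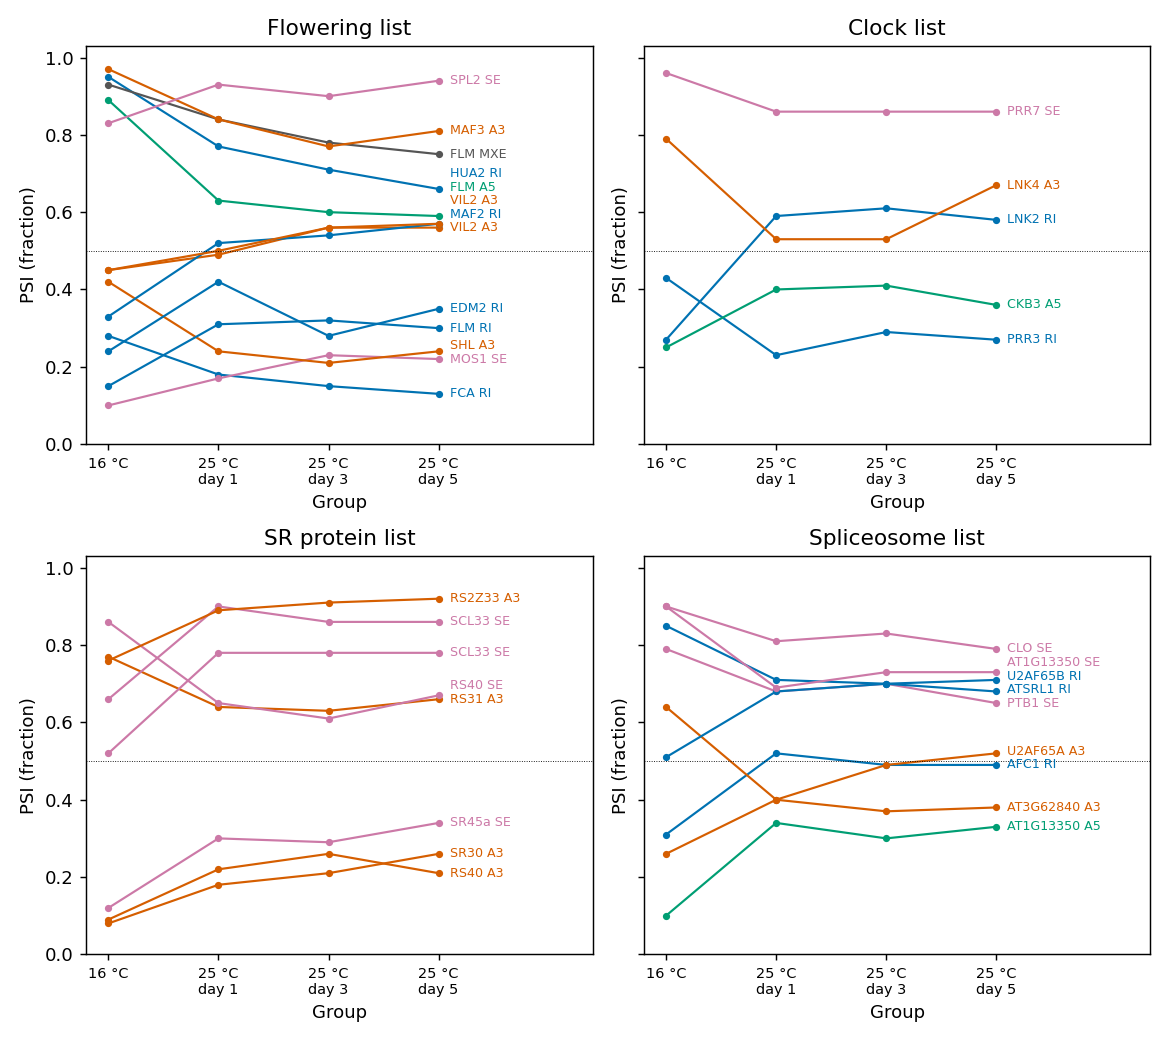
PSI (fraction) of each event with a difference of 0.10 or more in the flowering, clock, SR protein and spliceosome lists, in the groups 16 °C and 25 °C days 1, 3 and 5, 1 line per event coloured by type (blue RI, orange A3, green A5, pink SE, grey MXE). Most lines part from the 16 °C value by day 1, and several, such as those of HUA2, FCA and the FLM MXE event, are lowest on day 5.

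Clock genes had 5 of 13 events past the limit (38.5%) and a median absolute ΔPSI of 0.06. The 5 events came from 5 of the 8 clock genes (62.5%, against 58.1% of all genes), so events and genes lie on different sides of their backgrounds. Neither was tested. *LNK2* brought 4 events to the list, of which only the retained intron passed the limit, and *PRR7* and *LNK4* also had an event under it. Besides *LNK2*, *PRR3*, a pseudo-response regulator, had a retained intron at 0.27 at 25 °C day 5 and 0.43 at 16 °C. *LNK4* (AT5G06980) had an alternative 3′ site at 0.67 at 25 °C day 5 and 0.79 at 16 °C, after 0.53 on both day 1 and day 3 at 25 °C. The casein kinase 2 subunit gene *CKB3*, whose product acts on clock proteins, had an alternative 5′ site at 0.36 at 25 °C day 5 and 0.25 at 16 °C. The fifth event was the exon of *PRR7* named at the limit above.

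SR proteins, the serine and arginine rich factors that help to choose splice sites, had 8 of 14 events past 0.10 (57.1%), 6 of them higher. No event of this list switched. Both exon events of *SCL33* (AT1G55310, listed as SR33) were included more, at 0.78 and 0.86 at 25 °C day 5 and at 0.52 and 0.66 at 16 °C, and the annotated exon of 36 bases is shown above. *SR45a* included an exon at 0.34 at 25 °C day 5 and 0.12 at 16 °C. *RS40* (listed as RSP35) had the opposite, with an exon at 0.67 at 25 °C day 5 and 0.86 at 16 °C, and an alternative 3′ site at 0.21 at 25 °C day 5 and 0.09 at 16 °C.

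Other SR genes differed in their alternative 3′ sites. *SR30* (listed as ATSRP30) stood at 0.26 at 25 °C day 5 and 0.08 at 16 °C. *RS2Z33* (listed as RSZ33) had 0.92 at 25 °C day 5 and 0.76 at 16 °C, and *RS31* (listed as ATRSP31) 0.66 at 25 °C day 5 and 0.77 at 16 °C. The 6 events of *SCL30A*, *RSZ32*, *SR45* and *SR1* differed by 0.03 to 0.08 in either direction.

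The list of spliceosome parts and their regulators had 9 of 19 events past 0.10 (47.4%), 4 higher and 5 lower, and no switch. Both forms of the large subunit of U2AF, which recognises the 3′ end of introns, were among them. *U2AF65B* (AT1G60900) retained an intron at 0.71 at 25 °C day 5 and 0.51 at 16 °C, and *U2AF65A* had an alternative 3′ site at 0.52 at 25 °C day 5 and 0.64 at 16 °C. *PTB1*, a polypyrimidine tract-binding protein, included an exon at 0.65 at 25 °C day 5 and 0.79 at 16 °C. *AFC1*, a kinase of the LAMMER class that phosphorylates SR proteins, retained an intron at 0.49 at 25 °C day 5 and 0.31 at 16 °C, just short of a switch.

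Among the remaining spliceosome events, the kinase gene AT1G13350 had both directions, with an alternative 5′ site at 0.33 at 25 °C day 5 and 0.10 at 16 °C and an exon at 0.73 at 25 °C day 5 and 0.90 at 16 °C. *ATSRL1*, of the PRP38 family, retained an intron at 0.68 at 25 °C day 5 and 0.85 at 16 °C. *CLO* (listed as MEE5), a GTPase of the U5 particle, included an exon at 0.79 at 25 °C day 5 and 0.90 at 16 °C. The Sm-like gene AT3G62840 had an alternative 3′ site at 0.38 at 25 °C day 5 and 0.26 at 16 °C. By contrast *U1-70K* was at 0.46 in both groups, and one of the 2 alternative 5′ site events of *UAP56a* at 0.76 in both; these were the 2 events of the table with no difference.

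The other 10 lists, sorted by annotation, ranged from 20% to 64.7% of events past the limit. By genes they ranged from 21.1% to 68.4%, against 58.1% of all genes, and some lists changed sides. The PPR and TPR list (64.7% of events) and the kinase list (63.3%) were both at 57.1% of genes. Other RNA-binding and helicase genes (46.5% of events) were at 61.3% of genes, and chromatin and transcription genes (55.8% of events) at 60%. None of these shares was tested. The lowest share was that of chloroplast and photosynthesis genes, with 4 of 20 events and a median absolute ΔPSI of 0.06. They were *PGR5-LIKE A*, of cyclic electron flow, which switched (0.62 at 25 °C day 5, 0.43 at 16 °C), the plastid sigma factor *SIG4* (0.65 at 25 °C day 5, 0.53 at 16 °C), the chlorophyll synthesis gene *CHLM* (0.88 at 25 °C day 5, 0.77 at 16 °C) and the mechanosensitive channel *MSL2* (0.04 at 25 °C day 5, 0.15 at 16 °C), all in alternative 3′ sites. Membrane transport genes had 8 of 29 (27.6%). Besides AT2G16990 and *ATTAP1*, the ABC transporter *ATMRP12* had an alternative 3′ site at 0.52 at 25 °C day 5 and 0.80 at 16 °C, and the symporter gene AT3G56160 a retained intron at 0.58 at 25 °C day 5 and 0.79 at 16 °C. For *ATMRP12* the day 1 value was 0.76, near that at 16 °C, and the day 3 value 0.57.

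Immune receptors of the NLR class had 5 of 9 events past 0.10 (55.6%), and all 5 were retained introns that were higher at 25 °C day 5. They came from 2 genes, AT5G40910, given with the switches, and *RPP4*, a receptor for downy mildew, in which 4 events stood at 0.45, 0.34, 0.48 and 0.44 at 25 °C day 5 and at 0.26, 0.18, 0.34 and 0.30 at 16 °C. The 4 other events of the list were lower by less than 0.10. They were the fifth retention event of *RPP4* (0.89 at 25 °C day 5, 0.98 at 16 °C), retained introns of *RPS6* (0.56 at 25 °C day 5, 0.64 at 16 °C) and *RPS4* (0.11 at 25 °C day 5, 0.16 at 16 °C), and an alternative 3′ site of AT1G58602 (0.09 at 25 °C day 5, 0.15 at 16 °C). Genes of this class lie in clusters of similar copies, so their counts are uncertain. Protein kinases had 19 of 30 (63.3%), 11 higher and 8 lower. AT4G03230, AT1G61430 and AT1G65950 led them, followed by AT1G49730 with an alternative 3′ site at 0.70 at 25 °C day 5 and 0.51 at 16 °C.

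DNA repair and cell division genes had 14 of 24 events (58.3%, against 56.4% of all events), of which 4 were higher and 10 lower. Many of these were alternative 3′ or 5′ site events, whose sign depends on the unstated reference isoform. The alternative 5′ site events of *MMZ3* had identical values, 0.31 at 25 °C day 5 and 0.44 at 16 °C, and each counts as lower. *REV3*, the catalytic subunit of a translesion polymerase, had an alternative 3′ site at 0.07 at 25 °C day 5 and 0.28 at 16 °C. *BUBR1*, of the spindle checkpoint, stood at 0.74 at 25 °C day 5 and 0.58 at 16 °C, and *UEV1D-4*, a ubiquitin-conjugating enzyme variant, at 0.17 at 25 °C day 5 and 0.33 at 16 °C. Genes of chromatin and transcription had 24 of 43 (55.8%), led by AT5G52070 and AT4G23860. They were followed by *FRS2*, related to the light signalling factor FAR1, with an alternative 3′ site at 0.57 at 25 °C day 5 and 0.79 at 16 °C, and by *TPR1*.

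Repeat proteins of the PPR and TPR classes, many of which act on organelle RNA, had 11 of 17 events (64.7%), 4 higher and 7 lower, and the 4 furthest are AT1G06710 and AT2G42920 above. Lipid genes had 9 of 16 (56.2%), with the phospholipases D in front. Ubiquitin and autophagy genes had 8 of 18 (44.4%), 2 higher and 6 lower, and none reached 0.20. Their furthest was the ubiquitin hydrolase-related gene AT3G47910, at 0.32 at 25 °C day 5 and 0.17 at 16 °C. Other RNA-binding and helicase genes had 20 of 43 (46.5%), led by *AGO1* and *La2*, and among them AT4G32440, of the Tudor-like class, retained an intron at 0.55 at 25 °C day 5 and 0.78 at 16 °C. The 328 events in no list had 203 past the limit (61.9%), 101 higher and 102 lower, and held 48 of the 76 switches.

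**Figure D5:**
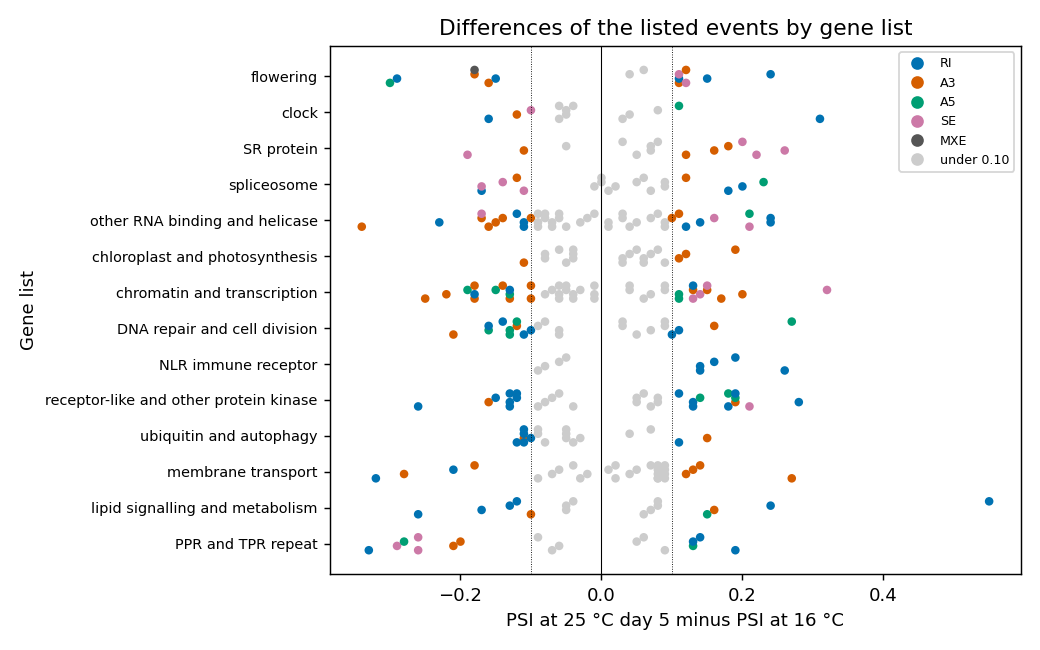
PSI at 25 °C day 5 minus PSI at 16 °C (horizontal axis) for every event of the 14 gene lists (rows), 1 point per event, coloured by type where the difference was 0.10 or more in either direction (dotted lines) and grey otherwise. NLR receptors have 5 coloured points on the right and 4 grey ones on the left, and chloroplast genes have 4 coloured points of 20.

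Nearly complete use of 1 isoform was seen in few of the 360 events. At 25 °C day 5, 3 had a PSI of 0.95 or more and 3 a PSI of 0.05 or less, against 10 and 6 at 16 °C. Selection for a difference between these groups leaves out events nearly complete for the same isoform in both, so low counts are partly built in. Events also moved more often towards 0.5 or past it than away from it. Of those with a 16 °C PSI under 0.5, 123 were higher and 66 lower at 25 °C day 5. Of those over 0.5, 51 were higher and 115 lower. Whether this lean or the lower counts at 25 °C day 5 go beyond what is built in was not tested. Events that were nearly complete at 16 °C and less so at 25 °C day 5 included, besides *HUA2* and *MAF3*, an alternative 3′ site of *VAD1* (0.71 at 25 °C day 5, 0.95 at 16 °C) and the retained intron of *FRS4* (0.86 at 25 °C day 5, 0.99 at 16 °C). Another alternative 3′ site event of *VAD1*, placed on the same annotated pair of sites, was under the limit, at 0.88 at 25 °C day 5 and 0.96 at 16 °C.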

How the data were processed

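RNA was sequenced from 12 samples (3 per group), grouped by their titles. By the paper's methods and GEO's processing notes from the submitters, the authors mapped reads with TopHat to TAIR10, assembled transcripts with Cufflinks, listed events with scripts of their own, estimated PSI with MISO per sample and on merged replicates, and called events by a Bayes factor on merged replicates, after requiring at least 20 isoform-specific reads in at least 2 replicates and smaller differences within than between conditions. The deposited values are PSI, a fraction that the authors rounded to 2 decimals, 1 per group and event. Which of the estimates the table holds is not stated there, and above the read minimum the depth of an event is unknown. A column of the authors' calls was not used.

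Differences were taken as 25 °C day 5 minus 16 °C. A difference of 0.10 or more counted, and a switch also needed values on both sides of 0.5. No test was run, as each group has 1 value. The members and the 14 gene lists, assembled from identifiers and annotation text, were chosen with earlier results of these data known. Named events are switches of 0.20 or more, the 10 highest and 10 lowest differences with ties, the events past 0.10 in the flowering, clock, SR and spliceosome lists, up to 4 from each other list, the 5 genes with the widest opposing spans, MXE events, and events at the limit. Where the symbol in the table is not the common one, both are given. VAD1, FRS4 and the genes whose sequences are shown outside this rule were chosen after their values were seen, as were comparisons by gene type and annotated size. All 484 genes with coordinates in the table begin with a start and end with a stop codon at these positions in the TAIR10.1 genome, so both builds were used alike. Counting was tested on simulated data. Python 3.11.15, pandas 2.3.3, scipy 1.17.1 and Biopython 1.88 were used.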

Additional observations from a re-analysis of the deposited data

How the results depend on the processing

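With a minimum of 0.15 the number of events that differed was 202 in place of 360, and 106 with 0.20, where the share that was higher at 25 °C day 5 was 58.5% in place of 49.2%. At 0.20 the counts of higher and lower events were 28 and 17 for retained introns, 13 and 20 for alternative 3′ sites, 7 and 4 for alternative 5′ sites and 14 and 3 for skipped exons, and 0 lower for mutually exclusive exons, which also had 0 when 1 event per gene was counted. Switches numbered 76, against 49 at 0.20 and 48 with both values 0.05 or more away from 0.5. The other alternatives (strictly more than 0.10, 1 event per gene, identical events once, PSI near 0 or 1 at 16 °C left out, no minimum or 0.50 as a crossing for switches) kept these counts within 1.5 times. Each of the 14 gene lists had fewer events at 0.20, by over 1.5 times, and with 1 event per gene the NLR list had 2 events in place of 5 and the kinase list 12 in place of 19. With 1 rounded value per group and no known depth, a difference near 0.10 has no known error, and leaving out single samples could not be done. No paired analysis was possible because the table holds no value per sample.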
